A study of Homo sapiens with 6 samples.

Results

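The endoplasmic reticulum (ER) folds the proteins that a cell secretes or places in its membranes, and the 10 genes described here encode chaperones and disulfide isomerases that work in its lumen or face it. They are HYOU1, HSPA5, HSP90B1, CALR, CANX, PDIA3, PDIA4, PDIA6, DNAJB11 and MANF, taken by name from the rows on assembled chromosomes, 10 of the 63299 genes in the count table. All 10 had enough reads to be tested, and HYOU1 was already known to have fallen in these libraries when the list was drawn up. The data are messenger RNA read counts from LNCaP, an established human prostate cancer cell line. In 3 knockdown libraries, labelled Dox+ (the usual short form of doxycycline), a short hairpin RNA was directed at MEP50, which partners PRMT5 in methylating arginines, and 3 control libraries were labelled Dox- with no knockdown. The comparison asks which transcripts change when MEP50 is lowered. The labels name no Dox+ library without a knockdown, so an effect of Dox and one of the hairpin cannot be told apart, and whether the line is 1 clone, and how long Dox was given, are not given in the sources used here. The libraries held 18568002 to 36234784 counts. WDR77, the gene of MEP50, was at 15.1, 14.0 and 12.7 CPM (counts per megacount, with TMM-scaled totals) in knockdown libraries 1 to 3 and at 49.3, 47.2 and 36.7 CPM in the controls, and fell 3.18-fold (adjusted p 0.00131, edgeR).

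HSPA5, also called BiP, is the Hsp70 chaperone of the ER, which binds unfolded chains in cycles driven by ATP. J proteins such as DNAJB11 hand it substrates, and HYOU1 releases its ADP so that a new cycle can begin. Calnexin (CANX) and calreticulin (CALR) hold glycoproteins through their sugars while PDIA3 forms their disulfide bonds. When unfolded protein builds up, the sensors ATF6, IRE1 (the gene ERN1) and PERK (EIF2AK3) raise these chaperones as a group. ATF6 and XBP1 act through short promoter elements, some of which also hold a CCAAT box, the site of the factor NF-Y. Luminal cells of the prostate secrete much protein and so use this machinery heavily.

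Most of the members' promoter windows carry such elements, and they are shown because 6 of the genes hold one. Windows of 300 bases, from 250 before to 50 after a start site, were taken from RefSeq (GRCh38.p14, the same assembly as the hg38 of the files) for 9 of the 10 members. Both strands were searched for 3 motifs. The ER stress response element (ERSE) is CCAAT and CCACG with 9 bases of any kind between them, ERSE-II is ATTGGNCCACG, and the unfolded protein response element (UPRE) is TGACGTGG. ERSE occurred in 0.077% of the 35116 windows in the table, ERSE-II in 0.054% and UPRE in 0.73%. Among the members, 5 genes had an ERSE, and HYOU1 alone had an ERSE-II and a UPRE. These are counts of genes and not of windows, since CANX has 4 windows and PDIA4 and PDIA6 have 2 each. The ERSE matches are printed 5′ to 3′ on the strand of the gene, with the fixed bases in capitals and 5 flanking bases on each side.
HSPA5 (chr9:125241386-125241414, minus strand): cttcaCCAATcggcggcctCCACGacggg
HSP90B1, farther (chr12:103930211-103930239, plus strand): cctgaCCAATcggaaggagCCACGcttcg
HSP90B1, nearer (chr12:103930316-103930344, plus strand): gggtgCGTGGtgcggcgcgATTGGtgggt
CALR (chr19:12938379-12938407, plus strand): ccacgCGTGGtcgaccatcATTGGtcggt
CANX (chr5:179698773-179698801, plus strand): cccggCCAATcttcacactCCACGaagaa
PDIA6 (chr2:10812848-10812876, minus strand): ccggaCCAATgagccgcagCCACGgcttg

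The matches in CALR and in the nearer HSP90B1 element lie on the opposite strand, so CCACG is read there as CGTGG, ahead of ATTGG. The HSPA5 element begins 66 bases before the start site, the PDIA6 element 86, the HSP90B1 elements 194 and 89, and the CALR element 225. CANX has several annotated starts, and its element lies within the windows of 3 of them, 9 to 189 bases before. PDIA6 has 2 windows, and its element lies in 1 of them, at a start inside the gene's annotated interval.

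HYOU1 differs from these, and 130 bases of its promoter are shown because both of its ERSE-II matches and the UPRE fall within them. The stretch runs from 193 to 64 bases before the start site, and the capitals mark the fixed bases of the matches.
HYOU1 (chr11:119057269-119057398, minus strand): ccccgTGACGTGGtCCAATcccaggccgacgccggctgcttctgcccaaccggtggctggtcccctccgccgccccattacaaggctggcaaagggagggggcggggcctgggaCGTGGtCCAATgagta

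The first HYOU1 match, 185 bases before the start, shares its CGTGG with the UPRE, which begins at 188 bases. The second lies 79 bases before the start. The windows of MANF, PDIA4 and DNAJB11 held none of the 3 letter patterns, and PDIA3 was not in the promoter table.

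**Figure D1:**
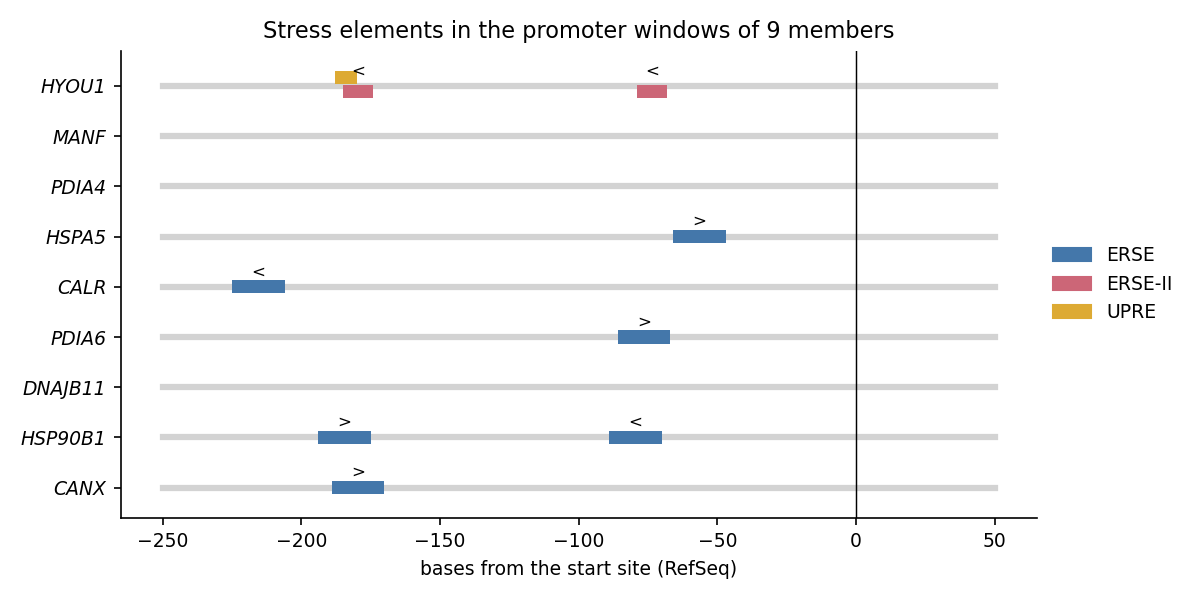
Positions of ERSE, ERSE-II and UPRE matches along the promoter windows of 9 members, in bases from the RefSeq start site (0), with genes ordered from the largest fall at the top to the smallest. Arrowheads give the strand of each ERSE or ERSE-II relative to the gene. CANX is drawn for the start farthest from its element, and PDIA6 for the start whose window holds its element. For 3 genes there is no match.

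Across the 10 genes the knockdown libraries held less transcript. HYOU1, MANF and PDIA4 fell the most, and all 10 log2 fold changes (knockdown minus control) were below 0. The members together took 4052 to 4284 CPM in the knockdown libraries and 5261 to 6530 CPM in the controls, or 0.427% to 0.44% against 0.528% to 0.631% of all counts. Without HYOU1 the sums were 3864 to 4132 CPM and 4836 to 5998 CPM, and the groups still did not overlap. In bulk RNA, fewer cells with a transcript and less of it per cell cannot be told apart.

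In edgeR's quasi-likelihood test, with p-values adjusted by Benjamini-Hochberg over 21101 genes and a threshold of 0.05, 3 of the 10 members fell and 0 rose. Over all tested genes 4.88% fell and 2.72% rose. HYOU1 was included for its known fall, and without it 2 of 9 fell. At an unadjusted p under 0.05 there were 7 lower members (6 without HYOU1), against 14.3% of all tested genes. Libraries with the same replicate number deviated together, which the fit above leaves out. With the number as a block, so that equal numbers form pairs, 7 of the 10 fell and 0 rose (6 of 9 without HYOU1). Over all genes the shares with the block were 14.9% lower and 11.2% higher. Groups without overlap, knockdown below control, were found for 8 of 10 members (7 of 9 without HYOU1) and for 17% of all genes. The median log2 fold change of the members was -0.46 (-0.39 without HYOU1), and that of all tested genes was 0.002. Among the 5370 tested genes at least as abundant as the least abundant member, the median was -0.11 and 9.53% fell. With the block 1456 of these fell and 535 rose. Their groups did not overlap in 1488 genes with knockdown below control and in 558 with knockdown above. The 1456 and 1488 are larger shares than those over all genes. Upper-quartile scaling moved the median of all genes up by 0.122, gave 722 lower and 894 higher genes in place of 1029 and 574, and left the members with 3 falls and a median of -0.34. DESeq2 called 5 members lower, against 6.82% of all genes, and limma-voom 4, against 4.98%.

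**Figure D2:**
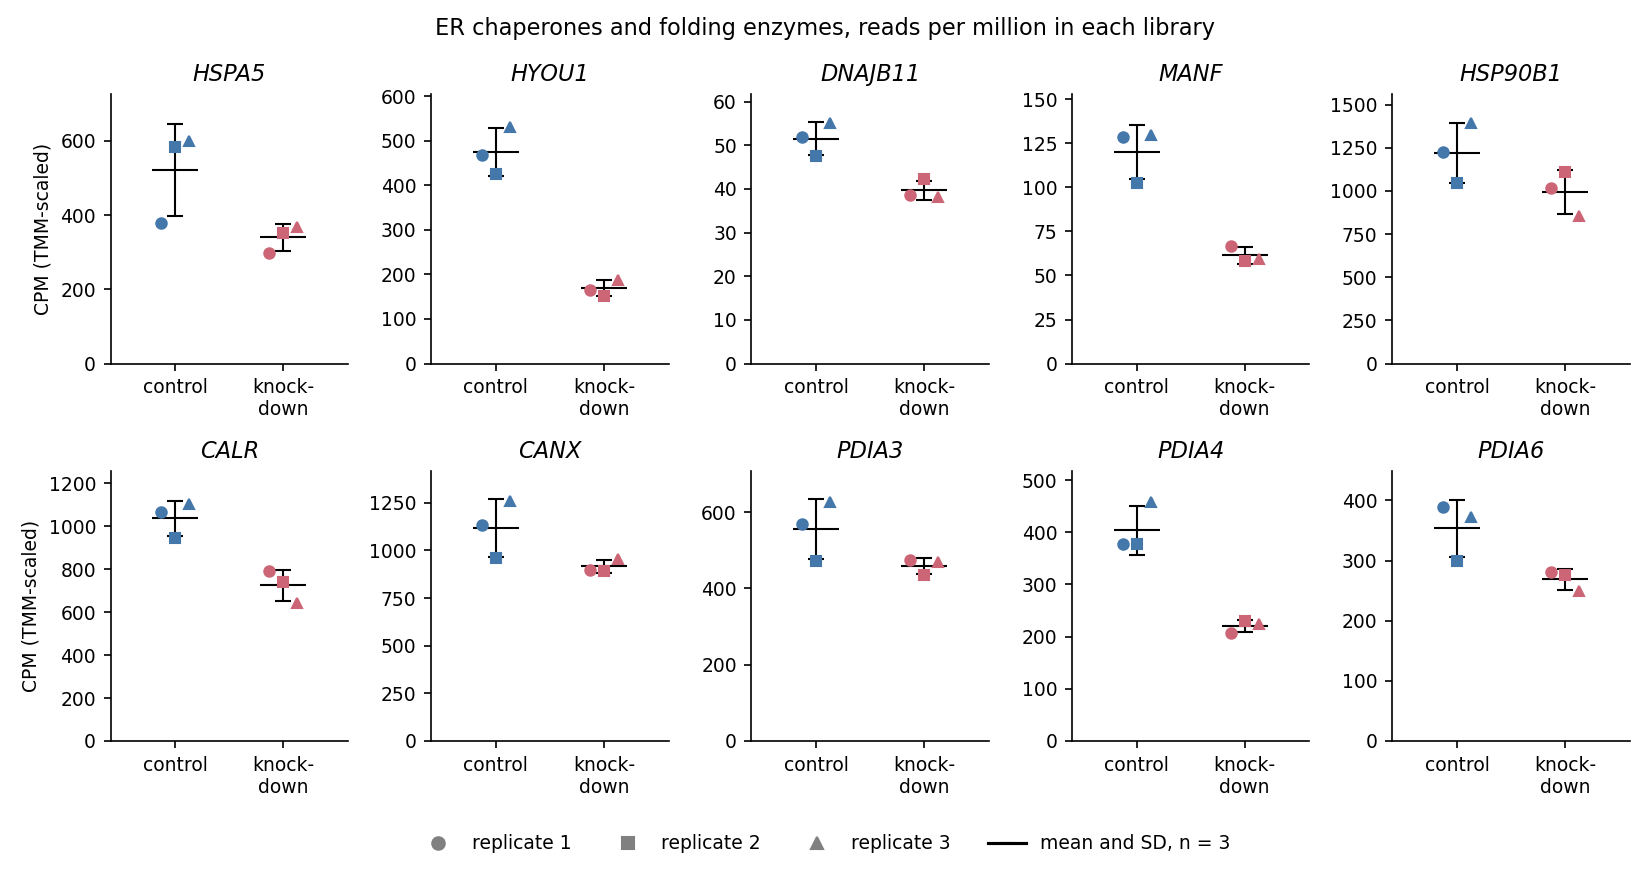
TMM-scaled CPM of each member in the 3 control libraries (blue) and 3 knockdown libraries (red), with symbols for the replicate number and bars for the mean and SD. HYOU1, MANF and PDIA4 have wide gaps between the groups, while HSP90B1 and PDIA3 overlap.

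HYOU1, the large Hsp70 relative that serves as exchange factor for HSPA5 and is also known as GRP170 or ORP150, had the largest fall. It is gene ENSG00000149428.18, on chromosome 11 from 119044189 to 119057202 (hg38, minus strand). Its reads numbered 3102, 5633 and 4106 in knockdown libraries 1 to 3, which is 166, 152 and 188 CPM. In the same order the controls had 12030, 12783 and 18628 reads, or 467, 426 and 532 CPM. Every knockdown library was thus below every control library by a wide margin. The mean was 169 ± 18.02 CPM against 475 ± 53.5 CPM (SD, n = 3 libraries per group), a 2.81-fold fall. On the log2 scale this was -1.49, with an SE of 0.14 and an adjusted p of 0.00111 (edgeR). The fall was nearly the same in each replicate pair, with log2 differences in CPM of -1.49, -1.48 and -1.50. HYOU1 was called in all 12 alternative fits, and leaving out 1 library gave log2 fold changes from -1.58 to -1.41.

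An antisense gene, RP11-110I1.6, shares 666 exonic bases (8.66%) with HYOU1 on the other strand. No source used here gives the strand setting of the counting, so reads of this pair cannot be told apart where they overlap. RP11-110I1.6 was at 9.7 to 15 CPM in knockdown and 32 to 43.2 CPM in control libraries, and its log2 fold change of -1.61 (SE 0.20, adjusted p 0.00324, edgeR) was close to that of HYOU1. Its reads were few beside those of HYOU1. A further HYOU1 row, on a scaffold outside the assembled chromosomes, held 0 reads in every library.

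HSPA5, the chaperone that HYOU1 serves, was lower by less. It lies on chromosome 9 from 125234853 to 125241330 (ENSG00000044574.7). Knockdown libraries 1, 2 and 3 held 299, 352 and 369 CPM, and control libraries held 378, 584 and 599 CPM. Control replicate 1 was far below the other controls and only just above knockdown replicate 3, and the groups were separate but close. The means were 340.0 ± 36.9 CPM and 521 ± 124 CPM (SD, n = 3), with a log2 fold change of -0.62 (SE 0.19) that was not called (adjusted p 0.0806, edgeR). With the replicate pairs as a block it was called (adjusted p 0.00229, with a range of 0.00229 to 0.213 over the 12 alternatives). Without control replicate 1 it was also called, with an adjusted p of 0.0318.

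HYOU1 was lower relative to HSPA5 in every knockdown library than in any control. Since HYOU1 was listed for its known fall, a lower ratio was likely beforehand, and the values are a description only. For every HSPA5 read there were 0.557, 0.433 and 0.51 HYOU1 reads in knockdown libraries 1 to 3, and 1.23, 0.729 and 0.887 in the controls. All 3 knockdown ratios were below all 3 control ratios. This ratio within a library does not depend on how libraries are scaled. The log2 ratio was -1.01 ± 0.185 in knockdown and -0.11 ± 0.383 in control (SD, n = 3), a difference of -0.90. A two-sided exact permutation test gave p = 0.1, the smallest that 20 splits of 3 against 3 allow, so the test could not pass the threshold.

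MANF is a small protein that binds HSPA5 and is secreted under ER stress. It is on chromosome 3 from 51385047 to 51389397 (ENSG00000145050.15), and no other gene in the table overlaps its exons. It was at 66.7, 58.1 and 59.3 CPM in knockdown libraries 1 to 3 and at 128, 103 and 129 CPM in the controls. All 3 controls stood well above the knockdown libraries. MANF fell 1.96-fold, from 120.1 ± 15.2 to 61.4 ± 4.62 CPM (SD, n = 3), or by 0.97 on the log2 scale (SE 0.14, adjusted p 0.00509 in edgeR). It was called in all 12 alternatives.

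DNAJB11, the J protein ERdj3 that brings unfolded chains to HSPA5, was the least abundant member (chromosome 3 from 186567403 to 186585800, ENSG00000090520.11). Its knockdown libraries held 38.2 to 42.3 CPM and its control libraries 47.6 to 55.1 CPM. The groups did not overlap, but the log2 fold change of -0.38 (SE 0.13) was not called (adjusted p 0.103, edgeR). It was called with the block (0.0259, with a range of 0.0259 to 0.284 over the alternatives). On the other strand, TBCCD1 shares 381 exonic bases (6.65%) with DNAJB11 and RP11-573D15.8 shares 496 (8.65%). RP11-134F2.8, on the same strand, shares 451 (7.87%) and held 0 reads in every library.

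HSP90B1, or GRP94, is the Hsp90 of the ER and folds integrins, Toll-like receptors and insulin-like growth factors. It lies on chromosome 12 from 103930107 to 103953645 (ENSG00000166598.13). Knockdown libraries 1, 2 and 3 held 1019, 1107 and 853 CPM, and controls held 1225, 1046 and 1393 CPM. The groups overlapped, because knockdown replicate 2 lay above control replicate 2. The log2 differences within pairs were -0.27, 0.08 and -0.71, so the replicate 2 pair differed in direction. The log2 fold change of -0.30 (SE 0.16, adjusted p 0.285, edgeR) was not called in that fit or in any of the 12 alternatives.

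CALR, a lectin chaperone that is soluble in the lumen and also buffers calcium there, lies on chromosome 19 from 12938578 to 12944489 (ENSG00000179218.13). It was at 789, 740.2 and 644 CPM in knockdown libraries 1 to 3 and at 1065, 945 and 1102 CPM in the controls. All controls were higher than all knockdown libraries. Its log2 fold change of -0.52 (SE 0.14) narrowly missed the threshold (adjusted p 0.0527, edgeR) and was called with the block (0.00761, with a range of 0.00761 to 0.175 over the alternatives), in DESeq2 (0.0298) and in limma-voom (0.037). CTC-425F1.4, on the other strand, shares 270 exonic bases (9.95%) with CALR.

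CANX, on chromosome 5 from 179678628 to 179730925 (ENSG00000127022.14), is anchored in the ER membrane and binds the same sugars as CALR. It held 892 to 956 CPM in knockdown libraries and 961 to 1262 CPM in controls. The groups were separated by a narrow gap only. The change on the log2 scale was -0.29, with an SE of 0.14 and an adjusted p of 0.245 (edgeR). PDIA3, or ERp57, which forms disulfides in glycoproteins bound by CALR and CANX, is on chromosome 15 from 43746392 to 43773279 (ENSG00000167004.12). It held 435 to 474 CPM and 473 to 627 CPM, and these ranges overlapped. PDIA3 differed by -0.28 on the log2 scale, with an SE of 0.14 and an adjusted p of 0.259 (edgeR). ELL3, on the other strand, shares 627 exonic bases (14.8%) with PDIA3 and held 1.47 to 2.95 CPM over the libraries. CATSPER2P1, also on the other strand, shares 176 (4.15%) and held 33.3 to 48.0 CPM. Neither CANX nor PDIA3 was called in any of the 12 alternatives.

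PDIA4, or ERp72, a disulfide isomerase with an extra catalytic domain that is found in complexes with HSPA5 and HSP90B1, had the third largest fall. It lies on chromosome 7 from 149003062 to 149028641 (ENSG00000155660.10). Knockdown libraries 1, 2 and 3 held 207, 230 and 225 CPM, and control libraries 377, 377 and 458 CPM. The lowest control was far above the highest knockdown library. PDIA4 fell 1.83-fold, from 404 ± 46.8 to 221 ± 11.8 CPM (SD, n = 3), or by 0.87 on the log2 scale (SE 0.13, adjusted p 0.00635 in edgeR). It was called in all 12 alternatives.

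PDIA6, or P5, an isomerase that also binds HSPA5, lies on chromosome 2 from 10783391 to 10837977 (ENSG00000143870.12). It was at 282, 275 and 250 CPM in knockdown libraries 1 to 3 and at 389, 300 and 372 CPM in the controls. Control replicate 2 was close to the knockdown libraries, and the other controls were well above. The difference of -0.39 on the log2 scale (SE 0.14, adjusted p 0.114 in edgeR) was not called, but it was called with the block (0.0244, with a range of 0.0244 to 0.375 over the alternatives). PDIA6 shares 1033 exonic bases (25.2%) with ATP6V1C2 on the other strand, which had a log2 fold change of -0.41 (SE 0.14, adjusted p 0.104, edgeR).

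**Figure D3:**
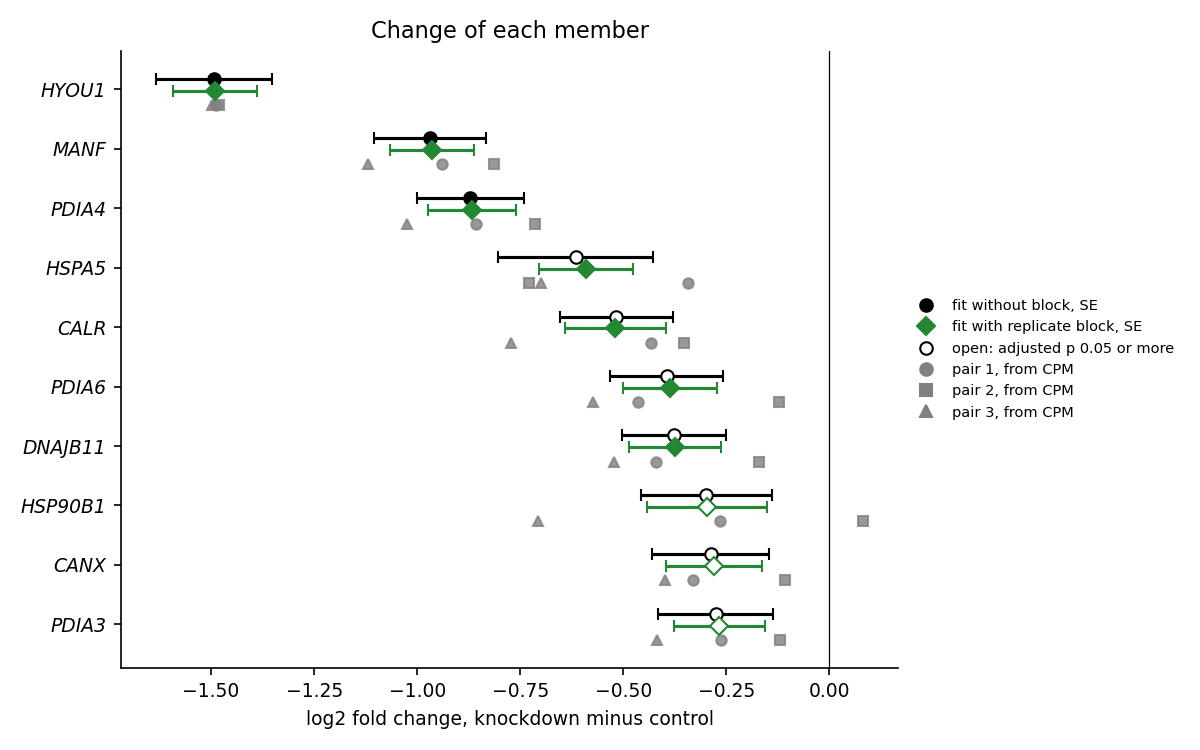
Log2 fold change (knockdown minus control) of each member, with its SE, in the fit without the block (circles) and with the replicate block (diamonds), and the 3 differences within replicate pairs computed from CPM (grey). Filled symbols have an adjusted p under 0.05; HYOU1, MANF and PDIA4 are filled in both fits, 4 more in the block fit, and the grey points of HYOU1 nearly coincide.

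The size of the difference varied between the replicate pairs, each of which sets 1 library against 1 library. In 9 of the members, HSPA5 excepted, the log2 difference was weakest (or above 0, in HSP90B1) in the replicate 2 pair, and in HSPA5 it was weakest in the replicate 1 pair, at -0.34 against -0.73 and -0.70. For HYOU1 the 3 pairs lay within 0.02 of each other, so their order there carries little. For the other 8 the replicate 3 pair was the strongest, with differences from -0.40 in CANX to -1.12 in MANF. The members share the same libraries, so they do not repeat the observation, and the order over all genes was not computed. Genes outside the members went both ways. DNAJC3 was weakest in the replicate 2 pair (-0.29), while P4HB (-0.57) and WDR77 (-1.71) were strongest there.

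Levels of different genes can be set side by side per length of exon, as RPKM, which is CPM divided by the exonic length in kilobases. That length covers all annotated exons of a gene and can exceed the transcript expressed, so ranks between genes are approximate. In control cells the order was CALR at 382 ± 30.3 RPKM, HSP90B1 at 260.5 ± 37.0, CANX at 179 ± 24.2, HSPA5 at 133 ± 31.6, PDIA3 at 131 ± 18.4, PDIA4 at 123 ± 14.3, PDIA6 at 86.2 ± 11.5, HYOU1 at 61.7 ± 6.95, MANF at 56.9 ± 7.20 and DNAJB11 at 8.998 ± 0.66 (SD, n = 3). HSPA5, PDIA3 and PDIA4 did not differ beyond their spread, nor did HYOU1 and MANF. In knockdown cells HYOU1, at 21.9 ± 2.34 RPKM, ranked below MANF, at 29.1 ± 2.19 RPKM, and HSPA5, at 87.0 ± 9.44 RPKM, ranked below PDIA3, at 108 ± 4.96 RPKM. PDIA4 fell from its place beside HSPA5 to 67.4 ± 3.59 RPKM, next to PDIA6 at 65.6 ± 4.16 RPKM, which it did not exceed beyond their spread. CALR, HSP90B1 and CANX kept the first 3 places, and DNAJB11 the last, at 6.93 ± 0.39 RPKM.

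Over the 6 libraries, the members most like HYOU1 in log2 CPM were PDIA4 (Pearson r 0.981), MANF (0.977) and DNAJB11 (0.926), and the least like it was HSP90B1 (0.672). Outside the gene lists, the 5 genes with a mean of at least 10 CPM closest to HYOU1 were RP11-567M16.6 and JADE1 (both 0.999), GOLGA2P5 (0.998), and TMEM56 and the sterol reductase DHCR7 (both 0.997). Of 10352 genes compared, 364 had an r over 0.95. These values describe 6 points that share the split into 2 groups and no p was computed. Their log2 fold changes ran from -0.53 in GOLGA2P5 to -1.32 in TMEM56, and since likeness to HYOU1 chose these genes, no test of their fall is given.

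Other chaperones and enzymes of the ER lumen and membrane form a further list. Of its 45 tested genes, 3 fell (6.67%, against 4.88% of all tested genes) and 1 rose. Among the 5370 abundant genes, those at least as abundant as the least abundant member, 9.53% fell. With the block 1456 of the 5370 fell and 535 rose. These larger shares of falls also bear on the lists below, whose genes were not matched for abundance. The median of this list was -0.23, and that of the members without HYOU1 was -0.39. With the block 18 of the list fell and 1 rose, against 14.9% lower and 11.2% higher over all genes. ERO1A, the oxidase that recharges disulfide isomerases, fell from 48.4 ± 4.35 to 25.1 ± 4.84 CPM (SD, n = 3), which is -0.94 on the log2 scale (SE 0.17, adjusted p 0.0131 in edgeR), and was called in all 12 alternatives. Its relative ERO1B had a log2 fold change of -0.07 (adjusted p 0.929, edgeR), which ran from -0.33 to 0.33 with 1 library left out and was 0.05 with upper-quartile scaling.

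Weaker falls were those of UGGT1, the sensor that returns misfolded glycoproteins to CALR and CANX (-0.52, adjusted p 0.0376), and DNAJC3, a J protein for HSPA5 (-0.49, adjusted p 0.04, edgeR). PDIA5, an isomerase linked to ATF6 activation, rose by 0.56 (adjusted p 0.0306, edgeR). UGGT1 and PDIA5 lost their calls in each fit that left out 1 library (adjusted p up to 0.119 and 0.128), and DNAJC3 in all of these but the one without control replicate 2 (up to 0.137). With upper-quartile scaling UGGT1 and DNAJC3 were not called (both 0.102), and DNAJC3 was not with RLE scaling (0.0531). P4HB, the classical disulfide isomerase, had a log2 fold change of -0.40 (adjusted p 0.115), and DNAJB9, a J protein that restrains IRE1, one of -0.48 (0.0845, edgeR). The block fit called both (0.0214 and 0.0133, with ranges over the alternatives up to 0.328 and 0.253). SIL1, which like HYOU1 is an exchange factor for HSPA5, had a log2 fold change of 0.14 (SE 0.14, adjusted p 0.591, edgeR), with 111 to 146 CPM in knockdown and 107 to 127 CPM in control libraries. SDF2L1 and CRELD2, which are often induced with the members, had -0.25 and -0.19 (adjusted p 0.568 and 0.44).

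Of 22 tested genes of the unfolded protein response, 1 fell (4.55%, against 4.88% of all tested genes) and 0 rose. Their median was -0.16. Leaving out control library 3 gave a median of 0.04, knockdown library 1 gave -0.03 and control library 1 gave -0.08, and upper-quartile scaling gave -0.04. With the block 3 fell and 3 rose, against 14.9% lower and 11.2% higher over all genes. ATF6 held 58.4, 69.4 and 87.1 CPM in knockdown libraries 1 to 3 and 82.4, 74.6 and 103 CPM in the controls, which overlap (log2 fold change -0.28, SE 0.18, adjusted p 0.38, edgeR). XBP1, whose own promoter window holds an ERSE, held 172, 243 and 293 CPM and 244, 252 and 372 CPM, which also overlap (-0.29, SE 0.23, adjusted p 0.459). Counts per gene do not separate spliced from unspliced XBP1 messages, nor show cleavage of ATF6. ERN1 had a log2 fold change of -0.22, EIF2AK3 one of 0.19, ATF4 one of -0.15, DDIT3 one of 0.28 and HERPUD1 one of -0.18, with adjusted p from 0.521 to 0.779 (edgeR). Single libraries turned the sign of 4 of these values. Without knockdown replicate 1, ERN1 had 0.06 and ATF4 0.04. Without control replicate 3, ATF4 had 0.16 and HERPUD1 0.11. DDIT3 had -0.15 without knockdown replicate 3 and 0.82 without control replicate 3.

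The gene that fell, CREB3L4, encodes an ER-bound transcription factor of the ATF6 type that is abundant in prostate (-0.61, SE 0.15, adjusted p 0.04, edgeR). Its call was lost with upper-quartile scaling (0.0582) and in the fits that omitted knockdown library 2, knockdown library 3, control library 1 or control library 3 (up to 0.144). MBTPS2, a protease that cleaves ATF6, had -0.66 (adjusted p 0.103), NFYA, a subunit of NF-Y, had 0.45 (0.0761), and PPP1R15A, a phosphatase subunit that ends the PERK signal, had 0.81 (0.0967). These 3 were called with the block (0.00104, 0.00578 and 0.00494), with ranges over the alternatives up to 0.219, 0.221 and 0.258.

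In several of these genes the libraries of 1 number resembled each other across the groups. ATF4 was at 400, 558 and 757 CPM in knockdown libraries 1, 2 and 3 and at 468, 549 and 890.1 CPM in the controls of the same numbers. DDIT3 was at 34.9, 53.0 and 89.8 CPM and at 30.5, 36.4 and 79.4 CPM. In both groups and both genes the replicate 1 library was the lowest and the replicate 3 library the highest, and the same held for ERN1, XBP1 and HERPUD1. HSPA5 and EDEM1 had their lowest library in replicate 1 of both groups as well. HYOU1 did not follow that order, with replicate 2 lowest in both groups.

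**Figure D4:**
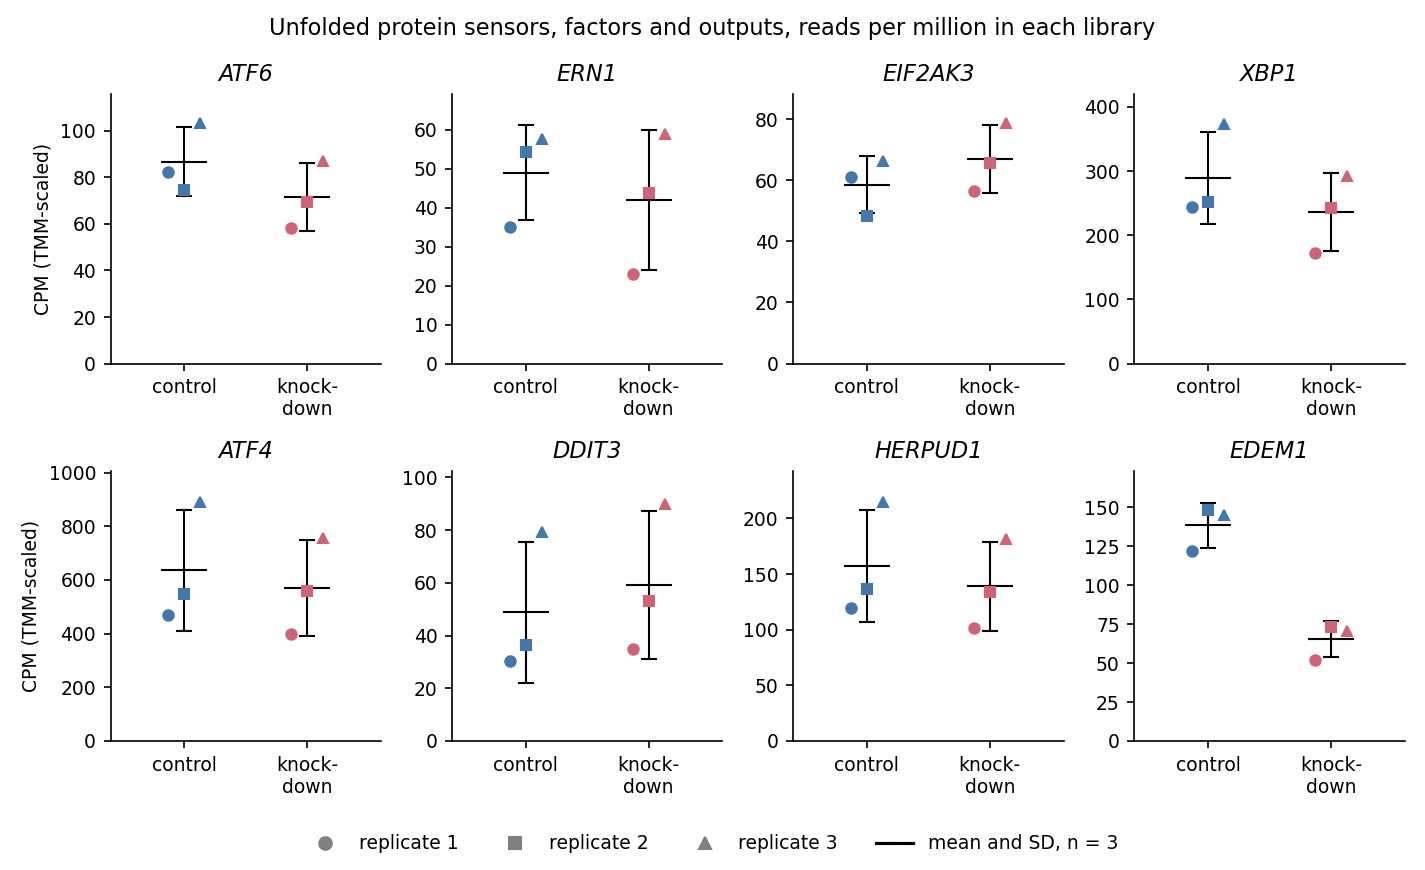
TMM-scaled CPM of 3 sensors (ATF6, ERN1, EIF2AK3), 3 factors (XBP1, ATF4, DDIT3) and 2 genes of ER-associated degradation (HERPUD1, EDEM1) in each control and knockdown library, with mean and SD. EDEM1 is the only one of the 8 whose groups do not overlap, and in ERN1, XBP1, ATF4, DDIT3, HERPUD1 and EDEM1 the replicate 1 library is the lowest of each group.

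ER-associated degradation, which sends misfolded proteins to the proteasome, had 1 fall and 0 rises among 23 tested genes, with a median of -0.19. The fall was 4.35% of the list, against 4.88% of all tested genes and 9.53% of the 5370 abundant ones. With the block 7 fell and 0 rose, against 14.9% lower and 11.2% higher over all genes. The median was -0.12 without control replicate 1 and -0.06 with upper-quartile scaling. EDEM1, a lectin that marks misfolded glycoproteins for removal, was at 52.2, 73.4 and 70.3 CPM in knockdown libraries 1 to 3 and at 122, 148 and 145 CPM in the controls. EDEM1 fell by 1.08 on the log2 scale (SE 0.16, adjusted p 0.0059, edgeR), a larger fitted fall than that of any member except HYOU1, and was called in all 12 alternatives. UFD1, SEL1L and NPLOC4 had log2 fold changes of -0.55, -0.55 and -0.30 (adjusted p 0.051, 0.0858 and 0.132, edgeR), and the block fit called them (0.00154, 0.00158 and 0.0417, with ranges over the alternatives up to 0.196, 0.237 and 0.355).

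The genes that bring new chains into the ER included 1 with a larger fitted fall than that of HYOU1, SRP14. Among 28 tested genes of translocation, signal cleavage and glycosylation 3 fell (10.7%, against 4.88% of all tested genes) and 0 rose. Of the 5370 abundant genes 9.53% fell. The median of the 28 was -0.26. With the block 10 fell and 1 rose, against 14.9% lower and 11.2% higher over all genes. SRP14, a subunit of the signal recognition particle, was at 68.6, 43.0 and 50.8 CPM in knockdown and at 198, 150.3 and 221 CPM in control libraries (log2 fold change -1.81, SE 0.21, adjusted p 0.00224, edgeR). SRPRB, a subunit of its receptor, fell by 1.00 (SE 0.13, adjusted p 0.00428) and SRP72 by 0.85 (SE 0.11, adjusted p 0.00421), and all 3 were called in all 12 alternatives. STT3A, a catalytic subunit of the oligosaccharyltransferase, had -0.52 (adjusted p 0.0619, edgeR) and was called with the block (0.00265, with a range over the alternatives up to 0.234).

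KDEL receptors return escaped lumenal chaperones from the Golgi to the ER. Of 24 tested genes in their list with ER-Golgi transport, 4 fell (16.7%, against 4.88% of all tested genes) and 0 rose. Of the 5370 abundant genes 9.53% fell. The list median was -0.33. With the block 13 fell and 1 rose, against 14.9% lower and 11.2% higher over all genes. KDELR1 was at 23.7, 18.1 and 28.2 CPM in knockdown libraries and at 41.1, 41.6 and 41.1 CPM in the controls, a change of -0.82 (SE 0.17, adjusted p 0.0242, edgeR). KDELR2 fell by 0.48 (adjusted p 0.0413), the coat protein COPA by 0.76 (0.0104) and the cargo lectin LMAN1 by 0.72 (0.0108). COPA lost its call without knockdown replicate 2 (0.0607) and LMAN1 without knockdown replicate 3 (0.0523). For KDELR1 the call went when knockdown library 1, knockdown library 2, control library 1 or control library 3 was omitted (up to 0.0814), and KDELR2 with upper-quartile scaling (0.103), RLE scaling (0.0542) and all single-library omissions other than that of control replicate 2 (up to 0.15).

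Relatives of the members in the cytosol and mitochondria gave 1 fall and 0 rises among 15 tested genes, with a median of -0.17. The fall was 6.67% of the list, against 4.88% of all tested genes and 9.53% of the 5370 abundant ones. With the block 3 fell and 0 rose, against 14.9% lower and 11.2% higher over all genes. The median was -0.06 without control replicate 1 and -0.30 without knockdown replicate 1. The J protein DNAJA1 fell from 323 ± 75.7 to 169 ± 29.4 CPM (SD, n = 3), which is -0.93 on the log2 scale (SE 0.19, adjusted p 0.0226 in edgeR). Omitting knockdown library 2, knockdown library 3 or control library 1 ended that call (up to 0.0984). DNAJA2 had -0.49 (adjusted p 0.051), HSP90AA1 -0.46 (0.122) and HSPA4L 0.27 (0.244, edgeR). With the block DNAJA2 and HSP90AA1 were called (0.00377 and 0.011, with ranges over the alternatives up to 0.206 and 0.314). HSPA8, the cytosolic counterpart of HSPA5, had -0.28 (SE 0.16, adjusted p 0.304), HSP90AB1, that of HSP90B1, had -0.18 (0.563), and HSPH1, that of HYOU1, had -0.03 (SE 0.18, 0.932, edgeR). HSPH1 held 142 to 180 CPM in knockdown and 128 to 203 CPM in control libraries, which overlapped. Its log2 fold change ran from -0.20 to 0.17 with 1 library left out and was 0.09 with upper-quartile scaling. Whether HYOU1 and HSPH1 differ in their change was not tested.

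**Figure D5:**
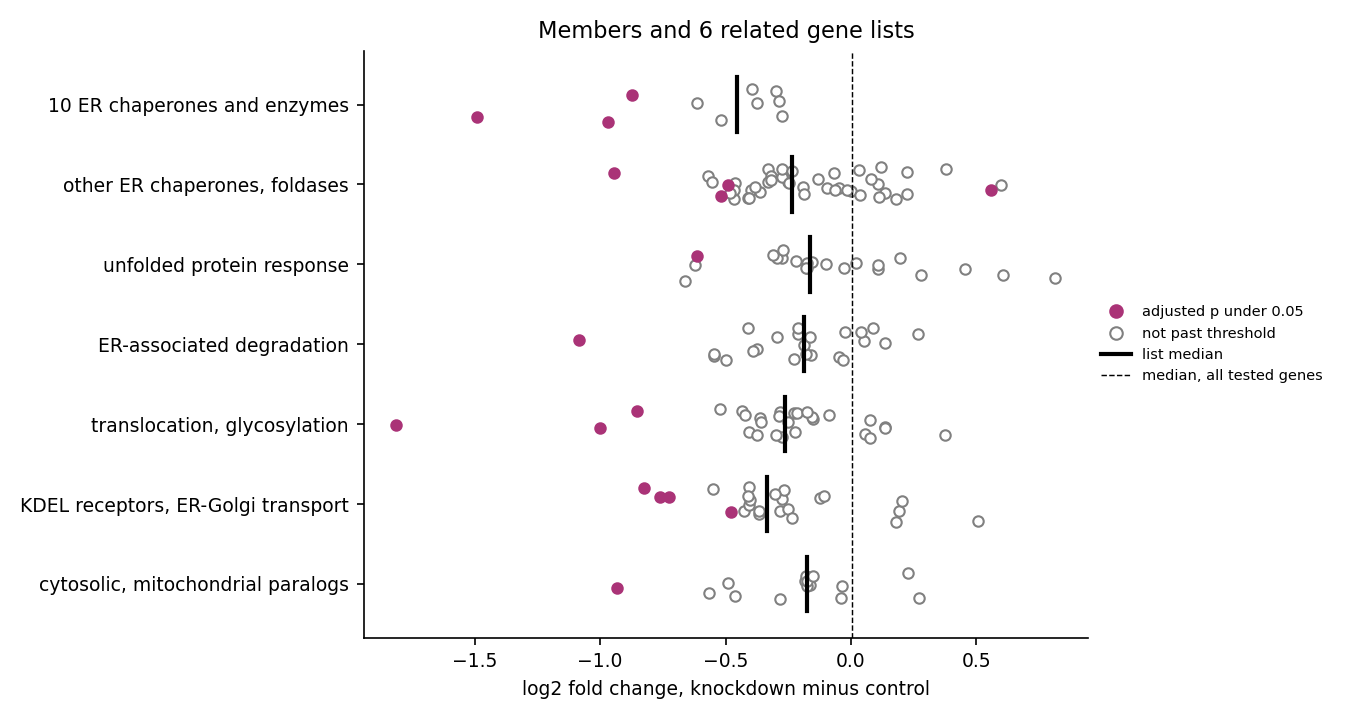
Log2 fold changes (knockdown minus control) of the tested genes in the members' list and the 6 related lists, 1 point per gene, filled where the adjusted p was under 0.05; thick bars are list medians and the dashed line is the median of all tested genes. The members' median is -0.46 and the other list medians lie between -0.33 and -0.16.

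Set beside the promoter elements, the 5 members with an ERSE had log2 fold changes from -0.29 to -0.62, and 0 of them passed the threshold without the block. HSPA5, CALR and PDIA6 passed it with the block. HYOU1, with 2 ERSE-II matches, had -1.49, and MANF and PDIA4, with no match in the window, had -0.97 and -0.87. Over all genes with an ERSE in a window 17 were tested, of which 0 were called, and the 12 that are not members had a median of -0.16. HYOU1, listed for its known fall, is 1 of the 13 tested genes with an ERSE-II. Of the 12 others, 1 was called, the ATPase RUVBL2, which fell, and their median was -0.20. HERPUD1 and SDF2L1 were among those 12 and had -0.18 and -0.25. Of 127 tested genes with a UPRE, 7 fell and 4 rose, with a median of -0.05. Without HYOU1, 6 of 126 fell and 4 rose. The shares over all tested genes were 4.88% lower and 2.72% higher.

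Markers of luminal prostate cells were expressed in all libraries. KLK3 had a mean of 957 CPM in knockdown and 2660 CPM in control libraries, KLK2 211 and 427 CPM, and KRT18 272 and 409 CPM, and these 3 fell (adjusted p 0.0027, 0.0205 and 0.0168, edgeR). FOLH1 had means of 983 and 1310 CPM, HOXB13 344 and 447 CPM, and KRT8 274 and 326 CPM, and these were not called (adjusted p 0.156, 0.14 and 0.224, edgeR). The part of the luminal markers in the members' result was not tested. Markers of other cells were scarce. Sums of 3 basal markers were at most 1.11 CPM, with KRT5 at 0 in all libraries. Sums of 3 leukocyte markers were at most 1.37 CPM. Sums of 5 fibroblast markers were 10.9 to 16.4 CPM in knockdown and 7.29 to 14.7 CPM in control libraries, mainly COL1A1. Sums of 3 endothelial markers were 10.5 to 26 CPM and 18.6 to 39.1 CPM, nearly all VWF, with PECAM1 and CDH5 at most 0.0535 CPM.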

How the data were processed

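Per the submitters' processing notes, the tools were bcl2fastq, STAR 2.5 with the hg38 build, featureCounts, Subread 1.6.5 and edgeR 3.20.8. The authors deposited whole-number read counts per gene, with each gene's exonic length (not a measurement). The annotation release, strand setting and hairpin sequence are not given in the sources used here. RNA was extracted with Trizol and libraries made with a TruSeq kit, per the labels' protocols.

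Computed here: edgeR 4.0.16 in R 4.3.3, TMM scaling, filterByExpr by group, quasi-likelihood F test of knockdown against control over all 6 libraries, two-sided, Benjamini-Hochberg over 21101 tested genes of 63299, threshold 0.05. CPM uses TMM-scaled totals, and log2 CPM is of CPM plus 0.5. RPKM divides CPM by exonic length. Alternatives were RLE and upper-quartile scaling, no filter, DESeq2 1.42.0, limma-voom (3.58.1), a replicate block, and each library left out. No set test was run. Some list genes carry older names in the file and were matched by Ensembl identifier.

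The members, lists, motifs and named genes were chosen with earlier results of these data known. Named genes were the members, WDR77, 18 genes fixed by symbol, the 4 list genes with the smallest adjusted p in each list, and the 5 genes closest to HYOU1.

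Titles number replicates 1 to 3 in both groups, and the design text calls them biological. Deviations from group means correlated at 0.637, 0.426 and 0.437 for the same number and from -0.429 to 0.064 otherwise. The numbers were therefore taken as pairs in the block fit. The main fit leaves them out, and calls come from it unless another fit is named. The edgeR p-values set the difference between the groups against the spread between these libraries, estimated with information shared across genes. On simulated counts for knockdown against control (20611 genes), the fit without the block called 3.08% of genes changed by a log2 of 0.5, 47.7% at 1 and 89.1% at 2. With the block (20643 genes) the shares were 19.7%, 72.3% and 96.9%. Of all calls, 11.8% without the block and 2.38% with it were unchanged genes. Each fit had 1 draw, with 64 to 66 genes changed at each size, fewer than were called in the data. Pair effects were simulated only for the block fit, and each draw used the spread of its own fit. The shares therefore do not compare the 2 fits, and the shares of unchanged genes need not hold for the data. Of 160 genes in the 6 other lists, 157 were tested. Marker lists were of luminal, basal, fibroblast, endothelial and leukocyte cells. Some luminal markers are not reported here.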

Additional observations from a re-analysis of the deposited data

How the results depend on the processing

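HYOU1, MANF and PDIA4 were called lower in every one of the 12 alternatives, and all 10 members had a negative log2 fold change in each. The count of 3 lower members became 5 without the filter on low counts, 5 with DESeq2, 7 with the replicate block, and 3 to 5 when 1 library was left out (5 without control replicate 2). Higher members were 0 throughout. Over all tested genes, 1029 lower and 574 higher became 1812 and 1336 without the filter and 3148 and 2358 with the block. Higher genes were 894 with upper-quartile scaling and 898 with DESeq2. Leaving out 1 library gave 329 to 923 lower and 168 to 500 higher genes, with the fewest of both without knockdown replicate 2. The 13 lower genes of the other lists became 22 without the filter, 54 with the block and 6 to 18 with 1 library left out, and the 1 higher gene became 3 with upper-quartile scaling, 4 without the filter, 3 with DESeq2, 6 with the block and 0 whichever library was left out. The fits without 1 library have fewer samples, and for the other shifts the cause was not tested. The difference in log2 HYOU1 to HSPA5 ratio was -0.89 with 2 in place of 0.5 added to CPM, -0.90 with the replicate block (sign-flip p = 0.25, exact, the smallest 3 pairs allow) and -1.07 to -0.69 with 1 library left out. Every member had 722 or more reads in each library, and the 3 libraries per group limit calls of small changes.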
